A study of Mus musculus with 69 samples.

Results

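Naive CD4+ T cells of AAB mice, which keep a single Stat5b allele and no Stat5a allele, were cultured with IL-7 and their mRNA was compared with that of WT cells and of BBA cells in the same culture. The libraries were chosen by genotype and culture from the authors' table of RNA-seq read counts per gene for CD4+ T cells, and all genes of the table entered. There were 2 AAB, 3 WT and 3 BBA libraries, 8 of the 69 samples of the series. The genotypes were Stat5a+/+ Stat5b+/+ (WT), Stat5a-/- Stat5b+/- (AAB) and Stat5a+/- Stat5b-/- (BBA), so that AAB and BBA each lack 3 of the 4 Stat5 alleles and differ in which paralog is left. The deletions are germline, hence present in every cell of the mouse, and in each of these strains 1 of the chromosomes lacks the whole Stat5 locus. Cells were sorted as naive, CD4+ and CD44 low, from combined lymph nodes and spleen, then cultured for 12 to 16 h with IL-7. A further 3 WT, 2 AAB and 2 BBA libraries of the same cells without cytokine served as the baseline. Those cells were processed straight after isolation, so that time in culture and the cytokine changed together. The study counts its replicates as biological, and ages are not given for single libraries.

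IL-7 is a survival factor for resting T cells. Its receptor, made of IL-7Rα and the common gamma chain, activates the kinases JAK1 and JAK3, which phosphorylate STAT5. STAT5A and STAT5B, the products of neighbouring genes, then form dimers that enter the nucleus, bind DNA at gamma-activated sequences (GAS) and switch on genes such as Bcl2, the Pim kinases and the SOCS family of feedback inhibitors.

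The 8 IL-7 libraries held 6705004 to 34118295 counted reads (median 11081901) and the 7 without cytokine 8275901 to 15969668. Levels are given as CPM, read counts relative to a library total scaled by TMM, a normalization that removes differences in RNA composition. Of the markers of naive CD4+ T cells, Cd4 stood at 609 to 703 CPM in WT, 624 and 676 in AAB and 674 to 748 in BBA with IL-7. Ccr7 stood at 653 to 753 CPM in WT, 734 and 777 in AAB and 685 to 781 in BBA, and Tcf7, a factor of resting T cells, at 1357 to 1471, 1590 and 1806, and 1881 to 2216. The 11 B cell markers summed to 15.2 to 23.0 CPM in WT, 29.6 to 36.7 in AAB and 38.3, 73.6 and 210.0 in BBA, with BBA replicate 1 the highest. Of the 6 NK cell markers 4 were in the table, and they summed to 0.448 to 1.53 CPM in WT, 4.34 to 4.37 in AAB and 25.8 to 43.8 in BBA. Most of that sum was Eomes, except in BBA replicate 3, which also held Gzma at 21.6 CPM and Ncr1 at 4.15. The 11 regulatory T cell markers summed to 399.8 to 496.9 CPM in WT, 337.6 to 375.2 in AAB and 202.6 to 267.0 in BBA, with Foxp3 itself at 20.1 to 30.8, 19.7 to 24.9 and 17.5 to 18.7. The largest member was Tnfrsf18, at 170 to 218, 160 and 188, and 49.5 to 72.3 CPM, and Il2ra is also on the STAT5 list below. Ikzf2 went the other way, at 3.14 to 4.96, 5.03 and 6.22, and 5.36 to 22.8 CPM. Without cytokine the sums were 114.7 to 150.0 CPM in WT, 165.2 and 183.9 in AAB, and 154.6 and 173.1 in BBA. The 13 markers of memory or effector CD4+ T cells summed to 241.6 to 298.3 CPM in WT, 405.9 and 367.4 in AAB and 256.5 to 410.7 in BBA, so that both AAB libraries lay above all WT libraries, as both did without cytokine (370.7 and 411.1 against 302.1 to 355.2). None of the 7 tested was a DEG between AAB and WT or BBA. The largest member of that sum in AAB with IL-7 was Id2, which is also on the STAT5 list below. Id2 stood at 197 and 201 CPM in AAB and 75.2 to 139 in WT with IL-7, and at 81.1 and 112 against 57.7 to 71.3 without cytokine. With IL-7, Cd44, Ahnak and S100a11 overlapped between AAB and WT, while Itgb1 was lower in AAB and Ccl5 higher. Cd8b1 was lower in AAB (9.05 and 11.4 CPM) than in every WT and BBA library (16.5 to 19.9). The part of these cells in the results below was not tested. In bulk RNA, fewer cells of a type and less RNA per cell cannot be told apart.

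Stat5a and Stat5b were examined first. Stat5a (GRCm38.p6, chr11:100859351-100885169) stood at 1.89 and 0.949 CPM in the AAB libraries, at 57.6, 63.6 and 33.8 CPM in WT, and at 47.4, 35.7 and 36.6 CPM in BBA. AAB was thus near 0, while WT replicate 3 lay below every BBA library. Stat5a was 36.2-fold lower in AAB than in WT (log2 fold change −5.18 ± 0.40 SE, edgeR quasi-likelihood test, adjusted p = 0.00102) and 28.0-fold lower than in BBA. Stat5b (chr11:100780731-100859004) stood at 170 and 202 CPM in AAB, at 309, 342 and 374 in WT, and at 130, 128 and 135 in BBA. AAB lay between the others with no overlap, 1.83-fold below WT (adjusted p = 0.00702) and 1.42-fold above BBA, under the 1.5-fold limit. Reads on Stat5b remained in BBA although both alleles are deleted. As the genes are paralogs, reads that match both could have been divided between them or lost, which was not tested. In AAB, with Stat5b at 170 and 202 CPM, only 1.89 and 0.949 CPM fell on Stat5a. In BBA the reads on Stat5a, 35.7 to 47.4 CPM, were fewer than those on Stat5b, 128 to 135 CPM.

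A differentially expressed gene (DEG) was one that differed more than 1.5-fold with an edgeR quasi-likelihood p, adjusted by the Benjamini-Hochberg method over the 9412 genes tested, under 0.05. With a single Stat5b allele, few genes were DEG. AAB cells had 60 DEG against WT (0.637% of genes tested), 19 higher (0.202%) and 41 lower (0.436%). Against BBA they had 148 (1.57%), 83 higher (0.882%) and 65 lower (0.691%). BBA against WT, in the same fit, gave 519 (5.51%), 272 higher (2.89%) and 247 lower (2.62%). In the first and second of these comparisons every DEG had groups that did not overlap. The call itself favours such genes, and the share without overlap over all genes tested was not counted. The counts for AAB rest on 2 libraries. Against WT they were 31 without AAB replicate 2, 23 without AAB replicate 3, and 29 without WT replicate 1 or without WT replicate 2. Against BBA 75 were left without AAB replicate 3.

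What a single Stat5b allele still carried was first read from the genes that IL-7 culture moved in WT. They were called from the contrast of WT libraries, in a fit whose filter and dispersion also drew on the AAB and BBA libraries. In WT, 951 of 10535 genes were higher with IL-7 than without cytokine (9.03%) and 771 were lower (7.32%). In AAB there were 750 (7.12%) and 628 (5.96%), and in BBA 831 (7.89%) and 602 (5.71%). Of the 951, AAB also raised 596, which is 62.7% of the WT list and 79.5% of the AAB list, and BBA raised 538, which is 56.6% of the WT list and 64.7% of the BBA list. In AAB 935 of the 951 had a response above 0, and the median log2 response was 0.917 in WT, 0.808 in AAB and 0.730 in BBA. Of the 771 lowered genes, 474 were lowered in AAB (61.5% of the WT list) and 377 in BBA (48.9%), with medians of −0.985 in WT, −0.869 in AAB and −0.698 in BBA. No gene of either WT list was called in the opposite direction in AAB, and 5 were in BBA, 4 of the raised and 1 of the lowered genes. AAB has 2 libraries in each culture where WT has 3, so the share that passes the test is not on equal terms. The medians of WT are not either. The genes were picked by their response in WT, which moves its medians away from 0. Lower medians in AAB or BBA would follow even from equal responses.

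The same WT lists also held most of the genes that set AAB apart from BBA under IL-7. Of the 951 genes raised in WT, 846 were tested between AAB and BBA; 57 were higher in AAB and 4 lower. Of the 771 lowered in WT, 573 were tested, and 3 were higher and 34 lower. Over all genes tested, 0.882% were higher in AAB than in BBA and 0.691% lower. The median log2 difference between AAB and BBA was 0.0465 over the raised genes, −0.122 over the lowered genes and 0.00356 over all genes tested. Hence 57 of the 83 genes that were higher in AAB were genes that IL-7 culture raised in WT, and 34 of the 65 that were lower were genes it lowered, although the bulk of both WT lists differed little between AAB and BBA.

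The gene lists were chosen with earlier results of these data known. Among them, feedback inhibitors and other known STAT5 targets were the list with the most genes higher in AAB than in BBA. Of 24 listed genes 21 were tested between genotypes and 22 for the response to IL-7 culture. That culture raised 14 of the 22 in WT, 12 in AAB and 6 in BBA, against 9.03%, 7.12% and 7.89% of all genes tested. It lowered 1, 1 and 3. None of the 22 differed in response between AAB and BBA, or between AAB and WT, by its own test. The counts that follow are thus of levels with IL-7. Against BBA, 9 were higher in AAB and none lower, where 0.882% of all genes tested were higher. The median log2 fold change was 0.68 (0.00356 over all genes). Against WT none was higher and 2 were lower, Lta and Cdk6, where 0.436% of all genes tested were lower. The median against WT was −0.17 (0.00163 over all genes). BBA against WT gave none higher and 13 lower, where 2.62% of all genes tested were lower, with a median of −0.81. The 2 against WT were 0 without AAB replicate 3 and 1 without AAB replicate 2, BBA replicate 3 or any 1 of the WT libraries. The 9 were between 7 and 11 when single libraries were left out, and 2 when BBA replicates 1 and 3 were left out together.

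**Figure D1:**
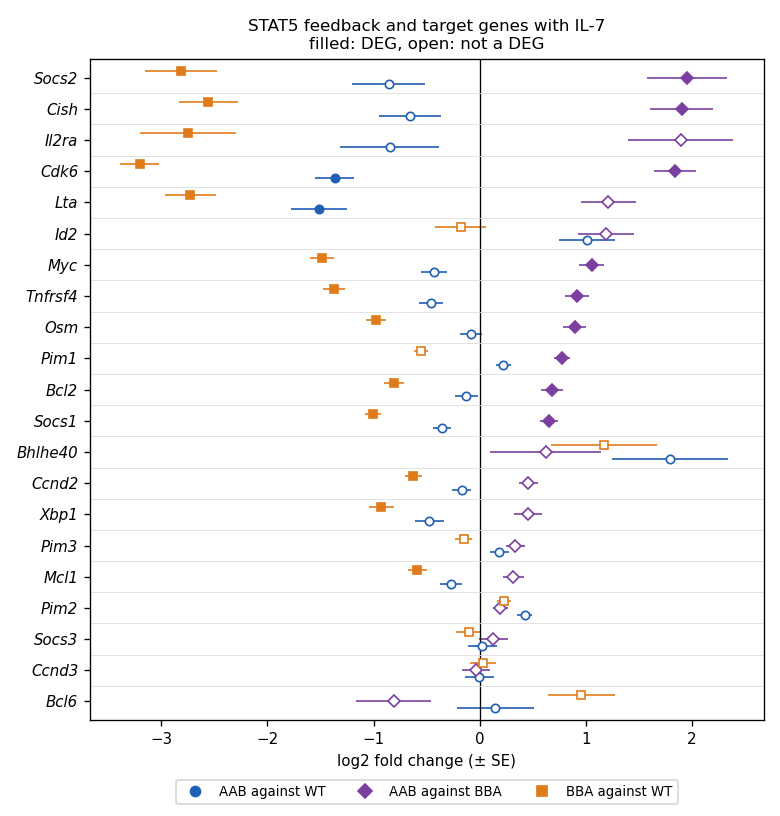
log2 fold changes (x axis, with SE) of the 21 tested STAT5 feedback and target genes for AAB against WT (circles), AAB against BBA (diamonds) and BBA against WT (squares), naive CD4+ T cells with IL-7. Filled symbols are DEG. The 9 filled diamonds lie to the right of 0, the 13 filled squares to the left, and 2 circles are filled.

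Among the feedback inhibitors, Cish, which encodes a SOCS-family protein and is a classical STAT5 target, stood at 91.2 and 50.9 CPM in AAB, at 101, 127 and 108 in WT, and at 19.0, 25.3 and 12.3 in BBA. Both AAB libraries lay above all BBA and below all WT libraries. Cish was 3.75-fold higher in AAB than in BBA (log2 fold change 1.91 ± 0.30 SE, adjusted p = 0.0139), a call that was lost without AAB replicate 2 or without BBA replicate 1, and its difference from WT, −0.65 ± 0.29 SE, did not pass (adjusted p = 0.445). Its promoter window holds 2 GAS motifs, TTCNNNGAA, which reads the same on both strands. They are shown because, of the 6 STAT5-list DEG between AAB and BBA with a promoter window, only Cish had a match. Lta, a DEG of AAB against WT but not against BBA, also held the motif. The stretch below is from RefSeq on GRCm38.p6, chr9:107296654-107296683, plus strand, 5′ to 3′, with the motifs in capitals, the first of them beginning at the first base of the transcript.
Cish: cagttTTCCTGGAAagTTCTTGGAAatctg
The motif was found in 8.43% of the 7639 tested genes with a promoter window (250 bases before to 50 after the start), in 4 of 16 tested genes of the STAT5 list, in 7 of 60 genes higher in AAB than in BBA (11.7%) and in 6 of 50 lower (12.0%). It was also in 5 of 19 tested interferon-list genes (26.3%) and in 5 of 15 genes higher in AAB than in WT (33.3%).

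Socs1, which blocks JAK kinases, stood at 61.7 and 66.0 CPM in AAB, at 82.4, 79.0 and 84.1 in WT, and at 41.2, 43.3 and 37.1 in BBA. The groups did not overlap, and AAB lay near the middle, 1.57-fold above BBA (adjusted p = 0.00531). Socs2 was low throughout, at 4.72 and 3.51 CPM in AAB, 6.27 to 9.12 in WT and 0.691 to 1.29 in BBA. It was higher in AAB than in BBA (log2 fold change 1.95 ± 0.38 SE, adjusted p = 0.0344), but the call held in only 1 of 7 fits that left out a library. Socs3, which restrains gp130-type receptors, overlapped among all groups.

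Of the survival and growth genes, Pim1, Bcl2 and Myc were higher in AAB than in BBA and did not pass against WT. Pim1, a serine/threonine kinase that promotes survival, stood at 568 and 560 CPM in AAB, at 455, 498 and 500 in WT, and at 312, 336 and 338 in BBA. AAB was the highest group, 1.71-fold above BBA (adjusted p = 0.000896) and 1.17-fold above WT (adjusted p = 0.274). Bcl2, the anti-apoptotic gene that IL-7 maintains in naive T cells, stood at 1243 and 1488 CPM in AAB, at 1558, 1395 and 1529 in WT, and at 886, 761 and 907 in BBA. AAB overlapped WT and lay above all BBA libraries, 1.60-fold higher (adjusted p = 0.0149), a call lost without AAB replicate 3. Myc, the growth regulator, stood at 116 and 123 CPM in AAB, at 171, 163 and 151 in WT, and at 49.0, 67.2 and 56.1 in BBA. AAB was 2.08-fold above BBA (log2 fold change 1.06 ± 0.12 SE, adjusted p = 0.00263) and lay below every WT library without passing the test (−0.43 ± 0.12 SE, adjusted p = 0.190).

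**Figure D2:**
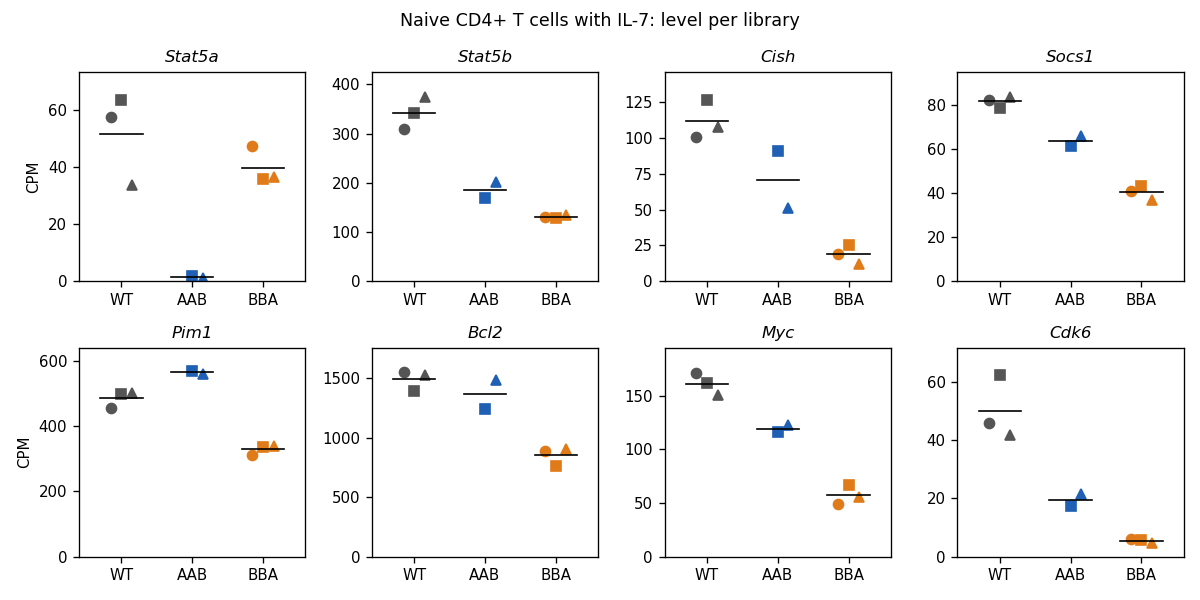
Level in CPM (y axis, from 0) of Stat5a, Stat5b and 6 STAT5 target genes in each library with IL-7, by genotype; circles, squares and triangles are replicates 1, 2 and 3, and bars are group means. AAB lies with or near WT for Bcl2 and Pim1, and between WT and BBA for Cish, Socs1, Myc and Cdk6. On this linear axis Cdk6 in AAB, at 17.4 and 21.5 CPM, lies nearer to BBA. By fold change it lies nearer to WT, 2.58-fold below WT and 3.57-fold above BBA.

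Cdk6, the kinase that partners D-type cyclins, was the STAT5-list gene called in all 3 comparisons. It stood at 17.4 and 21.5 CPM in AAB, at 45.7, 62.2 and 41.7 in WT, and at 5.89, 5.54 and 4.75 in BBA. The order WT, AAB, BBA held in every library, with AAB 2.58-fold below WT (adjusted p = 0.0152, lost without either AAB library) and 3.57-fold above BBA (adjusted p = 0.00197). Lta, which encodes lymphotoxin alpha, stood at 44.4 and 22.9 CPM in AAB against 84.8 to 111 in WT and 11.9 to 16.8 in BBA. It was 2.86-fold lower in AAB than in WT (adjusted p = 0.0367, called in 3 of 8 fits that left out a library), and its 2.32-fold difference from BBA missed the threshold (adjusted p = 0.0551).

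The cytokine Osm and the co-stimulatory receptors Tnfrsf4 (OX40) and Tnfrsf18 (GITR) were likewise higher in AAB than in BBA, and for Osm and Tnfrsf18 AAB overlapped WT. Osm stood at 36.5 and 38.4 CPM in AAB, 37.0 to 44.0 in WT and 18.1 to 21.3 in BBA, 1.86-fold above BBA. Tnfrsf4 stood at 59.2 and 53.7 CPM in AAB, 67.5 to 84.2 in WT and 27.0 to 31.3 in BBA, 1.89-fold above BBA. Tnfrsf18, from the list of activation receptors, stood at 188 and 160 CPM in AAB, 170 to 218 in WT and 49.5 to 72.3 in BBA, 2.79-fold above BBA. All 3 calls against BBA held in each of the 8 fits that left out a library. Il2ra, the IL-2 receptor alpha chain, stood at 29.8 and 15.6 CPM in AAB and 2.76 to 9.13 in BBA and did not pass (log2 fold change 1.90 ± 0.49 SE, adjusted p = 0.111). Pim2, Pim3, Mcl1, Ccnd2, Ccnd3, Xbp1, Bcl6, Id2 and Bhlhe40 were not DEG in either AAB comparison.

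Of 12 common gamma chain receptors and JAKs, the receptor side of the pathway, 10 were tested and none passed the test between AAB and BBA, Il2ra with the values above among them. Il4ra, the IL-4 receptor alpha chain, was the 1 DEG against WT, at 528 and 480 CPM in AAB, 838 to 961 in WT and 374 to 488 in BBA. AAB overlapped BBA and was 1.75-fold below WT (adjusted p = 0.0205). Of the 11 tested BCL-2 family genes Bcl2 was the only DEG against BBA, and none differed from WT.

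Among genes averaging 50 or more normalized counts, the largest excess of AAB over BBA was in genes outside these lists. Ecm1, which encodes a secreted matrix glycoprotein, stood at 669 and 1111 CPM in AAB, at 1652, 2334 and 2024 in WT, and at 60.9, 99.4 and 84.7 in BBA. AAB lay below WT and far above BBA, 10.9-fold (log2 fold change 3.45 ± 0.26 SE, adjusted p = 0.000412), and its 2.25-fold difference from WT did not pass (adjusted p = 0.0988). Gpr34, a receptor for lysophosphatidylserine, stood at 59.3 and 53.2 CPM in AAB, at 68.8, 83.3 and 48.8 in WT, and at 2.46 to 2.68 in BBA. AAB lay within the WT range and 21.6-fold above BBA (adjusted p = 6.12e-05). Slc30a4, a zinc transporter, stood at 140.0 and 143 CPM in AAB, 237 to 290 in WT and 21.1 to 32.8 in BBA, 5.62-fold above BBA.

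Other members of this group encode transporters, motor and scaffold proteins. The phospholipid flippase Atp10a stood at 209.7 and 237.6 CPM in AAB, 309 to 365 in WT and 38.3 to 49.2 in BBA, 5.34-fold above BBA. Myo6, an unconventional myosin, stood at 204 and 284 CPM in AAB, 382 to 561 in WT and 45.1 to 55.6 in BBA, above BBA by 2.26 on the log2 scale. In both of these AAB lay between WT and BBA with no overlap. Slc7a8, an amino acid transporter, stood at 8.39 and 7.97 CPM in AAB, 6.92 to 14.8 in WT and 0.541 to 0.719 in BBA, above BBA by 3.71 on the log2 scale. Map6, which stabilizes microtubules, was 14.1-fold above BBA and, unlike most of the group, also 3.11-fold below WT (11.3 and 12.6 CPM in AAB, 30.6 to 42.2 in WT). Amica1, which encodes the adhesion molecule JAML, likewise passed both tests, 5.07-fold above BBA and 2.44-fold below WT. Of the 8 fits that left out a library, 3 called Map6 and 4 called Amica1 against WT. Neb, which encodes the actin-binding protein nebulin, was highest in AAB, at 192 and 156 CPM, against 74.9 to 108 in WT and 11.6 to 26.3 in BBA, but did not pass against WT (adjusted p = 0.205). Drc1, Gm10653 and 3110082I17Rik completed the 12 largest above that count. Those 3, Slc7a8 and Map6 were at levels under 50 CPM in every IL-7 library.

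For 12 genes the response to IL-7 culture itself, with IL-7 minus without cytokine, differed between AAB and BBA (0.114% of 10535 genes), 10 with a higher response in AAB (0.0949%) and 2 with a lower (0.019%). Between AAB and WT it differed for 2 (0.019%), none higher and both lower. Unadjusted p was under 0.05 for 486 and 340 genes of the 10535. Both counts are fewer than that limit would be expected to pass if no gene differed. The count of 12 was 7 without AAB replicate 1 and 6 without BBA replicate 1 of the libraries without cytokine, and 20 without AAB replicate 2 and 22 without BBA replicate 2 of those with IL-7. The count of 2 was 0 without AAB IL-7 replicate 2 and 4 without BBA IL-7 replicate 1. Ecm1 went from 57.5 and 71.0 CPM without cytokine to 669 and 1111 with IL-7 in AAB, from 45.4 to 47.0 to the 1652 to 2334 above in WT, and from 50.9 and 53.5 to at most 99.4 in BBA. The response was thus large in WT and AAB and small in BBA, and the difference of log2 responses between AAB and BBA was 3.15 ± 0.33 SE (adjusted p = 0.0019). Slc30a4 and Atp10a gave differences of 2.40 ± 0.29 SE and 1.57 ± 0.20 SE. Ecm1, Slc30a4, Atp10a, Gpr146 and Phc3 stayed called in each of the 15 fits that left out a library.

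Gpr146, an orphan G protein-coupled receptor, rose from 119 and 112 CPM to 263 and 272 in AAB. It went from 90.0 to 110.1 CPM to 366 to 405 in WT, and in BBA from 127 and 133 to 127, 136 and 139, with no change that passed. Its window holds a GAS motif that begins 119 bases before the start, and it is shown with that of Tnfrsf18, whose motif begins 99 bases before the start (RefSeq, GRCm38.p6, both on the plus strand, motif in capitals, chr5:139380510-139380538 and chr4:156026213-156026241).
Gpr146: taagcaccggTTCCAAGAAaagggcggag
Tnfrsf18: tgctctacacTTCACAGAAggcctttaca
In WT, Ahcyl2, a relative of adenosylhomocysteinase, went from 94.4 to 96.7 CPM without cytokine to 211 to 254 with IL-7, while AAB went from 88.5 and 94.5 to 107 and 116. Vim, which encodes the filament protein vimentin, moved otherwise. It was 333 to 397 CPM without cytokine and 330 to 344 with IL-7 in WT, but fell in AAB from 363 and 360 to 151 and 164, and in BBA to 122 to 139. These were the 2 genes whose response was lower in AAB than in WT, by log2 differences of −0.99 ± 0.11 SE and −1.08 ± 0.12 SE (adjusted p = 0.00392 for both).

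**Figure D3:**
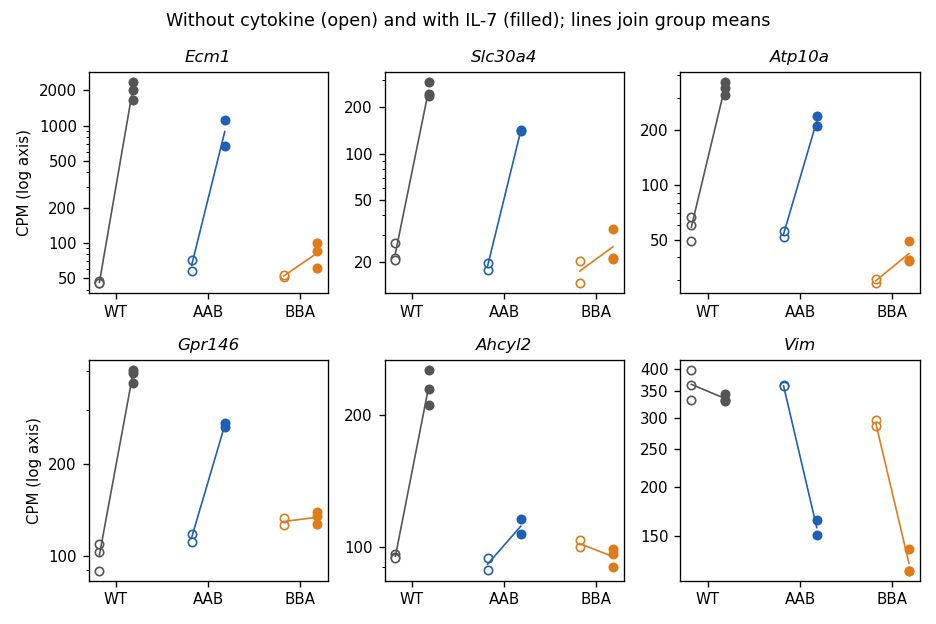
Levels in CPM (y axis, log scale) without cytokine (open) and with IL-7 (filled) of 6 genes whose response differed between genotypes; points are libraries and lines join group means. Ecm1, Slc30a4, Atp10a and Gpr146 rise steeply in WT and AAB and little in BBA, Ahcyl2 rises in WT, and Vim falls in AAB and BBA.

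With IL-7, 41 genes were lower in AAB than in WT, Stat5a and Stat5b among them. Of the 41, 7 lie on chromosome 11 (17.1%, against 8.49% of tested genes with a position), including Pttg1 and Adam19. The 7 also include Stat5a and Stat5b, whose call and place were fixed by the genotype. The part of sequence linked to the deleted alleles was not tested. Among the lower genes averaging 50 or more normalized counts, the 12 with the largest change began with Stat5a. Pttg1, which encodes securin, stood at 4.43 and 4.75 CPM in AAB, 20.9 to 38.2 in WT and 3.80 to 5.29 in BBA, 6.98-fold below WT (adjusted p = 0.00353). Adam19, a membrane metalloprotease, stood at 18.5 and 31.9 CPM in AAB, 143 to 166 in WT and 23.7 to 47.3 in BBA, 6.24-fold below WT. Without cytokine the gap was there too, with Pttg1 at 2.22 and 2.97 CPM in AAB and 19.5 to 38.2 in WT and Adam19 at 9.77 and 19.1 in AAB and 35.1 to 42.0 in WT. IL-7 culture raised Adam19 in WT (log2 response 2.08), while the response of Pttg1 in WT, 0.23, did not pass (adjusted p = 0.510). For both of these genes AAB overlapped BBA with IL-7 and the test between AAB and BBA gave adjusted p = 0.999 and 0.421. Rgcc, a cell cycle regulator, stood at 15.8 and 18.9 CPM in AAB, 65.1 to 97.2 in WT and 10.4 to 11.9 in BBA. It was 4.82-fold below WT, and its level above BBA in all libraries did not pass (adjusted p = 0.129).

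Dst, which encodes the linker protein dystonin, was 4.72-fold below WT, at 23.4 and 15.9 CPM in AAB, 82.4 to 102.0 in WT and 14.9 to 26.6 in BBA. Without cytokine Dst lay between 6.66 and 14.8 CPM in every library, and WT and AAB overlapped. Gucy1a3, a subunit of soluble guanylate cyclase, and Rgs1, which dampens G protein signalling, were graded. Gucy1a3 stood at 7.26 and 5.22 CPM in AAB, 22.7 to 29.3 in WT and 0.864 to 2.04 in BBA, 4.28-fold below WT and 4.04-fold above BBA. Rgs1 stood at 30.1 and 16.2 CPM in AAB, 88.9 to 99.7 in WT and 3.54 to 9.35 in BBA, 4.12-fold below WT and 3.19-fold above BBA, and each of its calls held in 3 of 8 fits that left out a library. D630039A03Rik had the same order, with 3.25-fold and 11.1-fold. Fam19a3, a secreted protein gene, was low, with 1.42 and 1.52 CPM in AAB against 6.16 to 8.30 in WT.

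A smaller number of genes set AAB apart from WT and BBA alike, and by the same sign. Slfn9, of the Schlafen family, stood at 28.4 and 26.8 CPM in AAB, 4.51 to 5.66 in WT and 5.87 to 6.90 in BBA, 5.46-fold above WT (adjusted p = 0.00051) and 4.39-fold above BBA. Tnip1, which restrains NF-κB signalling together with A20, stood at 301 and 257 CPM in AAB, 159 to 171 in WT and 150.2 to 160.4 in BBA, 1.69-fold above WT and 1.80-fold above BBA. Both differences stood already without cytokine, where Slfn9 was 62.7 and 47.7 CPM in AAB and 6.43 to 8.73 in the other libraries, and Tnip1 was 272 and 257 CPM in AAB and 139 to 176 in the others. Lypd6b stood at 2.26 and 2.94 CPM in AAB, 10.1 to 12.2 in WT and 14.8 to 22.4 in BBA. Abcg3, a transporter gene, stood at 6.32 and 3.32 CPM in AAB, 16.6 to 19.5 in WT and 20.4 to 26.3 in BBA. Both passed both tests, Lypd6b 4.18-fold below WT and 7.11-fold below BBA, Abcg3 by a log2 fold change of −1.94 and −2.26. C130046K22Rik was at or under 0.949 CPM in AAB and 5.75 to 17.3 in the other IL-7 libraries. Vmn2r96, a vomeronasal receptor gene, was at 0 in both AAB libraries and between 0.92 and 12.1 CPM in the others, and passed against BBA (adjusted p = 0.019) but not against WT (adjusted p = 0.0975). Slfn9, Abcg3 and Vmn2r96 have close relatives in the genome, so their reads could have been divided by the counting.

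Slfn9, Tnip1 and C130046K22Rik lie on chromosome 11, as do Stat5a and Stat5b. Of the tested genes with a position 8.49% lie there, against 13 of the 60 DEG between AAB and WT (21.7%) and 6 of the 19 that were higher (31.6%), Slfn9, Tnip1, Xaf1, Ikzf3, Scpep1 and Fancl, the last of which was named after its values were seen. Of the 41 that were lower 7 lie there (17.1%), Stat5a, Stat5b, C130046K22Rik, Pttg1, Adam19, Galnt10 and Slc22a5, the last 2 of which were likewise named after their values were seen. Of 147 DEG between AAB and BBA with a position, 18 do (12.2%), Stat5a among them. The shares of the 60 and of the 41 are raised by Stat5a and Stat5b, the deleted genes themselves. With the genes of that chromosome left out, there were 42 DEG against WT and 127 against BBA. The part of sequence flanking the deleted alleles was not tested. Tnip1 also holds a GAS motif, beginning 199 bases before the start (RefSeq, GRCm38.p6, chr11:54963121-54963149, minus strand, motif in capitals), shown because the gene was higher in AAB than in both other genotypes.
Tnip1: ccccctccccTTCCTGGAAtctaccacaa

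Of the other 10 genes with the largest excess over WT, 9 were not DEG between AAB and BBA. Fbxo27, an F-box protein gene, stood at 10.3 and 21.4 CPM in AAB, 1.104 to 1.34 in WT and 24.2 to 31.1 in BBA, 12.6-fold above WT (adjusted p = 0.00173). Inppl1, which encodes the phosphatase SHIP2, stood at 34.5 and 31.6 CPM in AAB, 1.79 to 3.52 in WT and 25.3 to 52.4 in BBA, above WT by 3.46 on the log2 scale (adjusted p = 0.00353). Ikzf3, which encodes the transcription factor Aiolos, stood at 279 and 301 CPM in AAB, 97.3 to 147 in WT and 396 to 468 in BBA, 2.35-fold above WT. Fbxo27 and Inppl1 lay above WT without cytokine too, at 12.0 and 13.1 and at 28.1 and 30.8 CPM in AAB against at most 2.79 and 4.68 in WT. Tlr6, Fbxo17, Arrdc4, Xaf1, Scpep1 and Phyh rose by 2.14-fold to 4.28-fold over WT with no DEG between AAB and BBA. Cyp2s1, a cytochrome P450 gene, was intermediate, 1.78-fold above WT and 1.95-fold below BBA. Calls for Tlr6, Arrdc4, Scpep1, Phyh and Cyp2s1 held in no more than 4 of 8 fits that left out a library.

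Among the gene lists, all chosen with earlier results of these data known, interferon-induced genes had the most members lower in AAB than in BBA. Of 30 listed genes 26 were tested. Against BBA 7 were lower in AAB (Irf7, Irf9, Rtp4, Parp14, Gbp2, Iigp1 and Irgm1) and none higher, where 0.691% of all genes tested were lower. The median log2 fold change was −0.73 (0.00356 over all genes), and all 26 were below 0. Against WT 1 was higher, Xaf1, with a median of 0.33. BBA against WT gave 16 higher, none lower and a median of 1.28. Without AAB replicate 3 none of the 7 was called, and none was in a fit of the AAB and BBA libraries alone. Within BBA, B cell markers were higher in replicates 1 and 3 than in replicate 2, and NK cell markers were highest in replicate 3. The NK cell marker sums were 25.8, 28.7 and 43.8 CPM in BBA replicates 1, 2 and 3. A fit without replicates 1 and 3 leaves a lone BBA library that still held NK cell markers, so it cannot separate the part of such cells. Gbp2 and Iigp1 were no longer called in that fit.

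The AAB libraries differed from each other in these genes. Gbp2, a guanylate-binding protein gene, stood at 165 and 74.2 CPM in AAB, 48.2 to 57.2 in WT and 272 to 484 in BBA, 3.06-fold below BBA (adjusted p = 0.0479, called in 2 of 8 fits that left out a library). Iigp1, an immunity-related GTPase gene, stood at 116 and 38.1 CPM in AAB, 20.8 to 39.0 in WT and 304 to 480 in BBA, 5.12-fold below BBA (adjusted p = 0.0333). In both of these AAB replicate 2 was the higher, and for Iigp1 replicate 3 lay within the WT range. Irgm1, a further GTPase of that family, stood at 145 and 77.9 CPM in AAB, 46.5 to 48.1 in WT and 251 to 410.2 in BBA, with a log2 fold change of −1.58 against BBA (adjusted p = 0.0190). Stat2, a transcription factor that works with IRF9 in the interferon pathway, stood at 105 and 86.1 CPM in AAB, 84.3 to 98.4 in WT and 137 to 188 in BBA, 1.69-fold below BBA (adjusted p = 0.0307). The guanylate-binding and immunity-related GTPases belong to families of near copies, whose reads may have been divided.

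**Figure D4:**
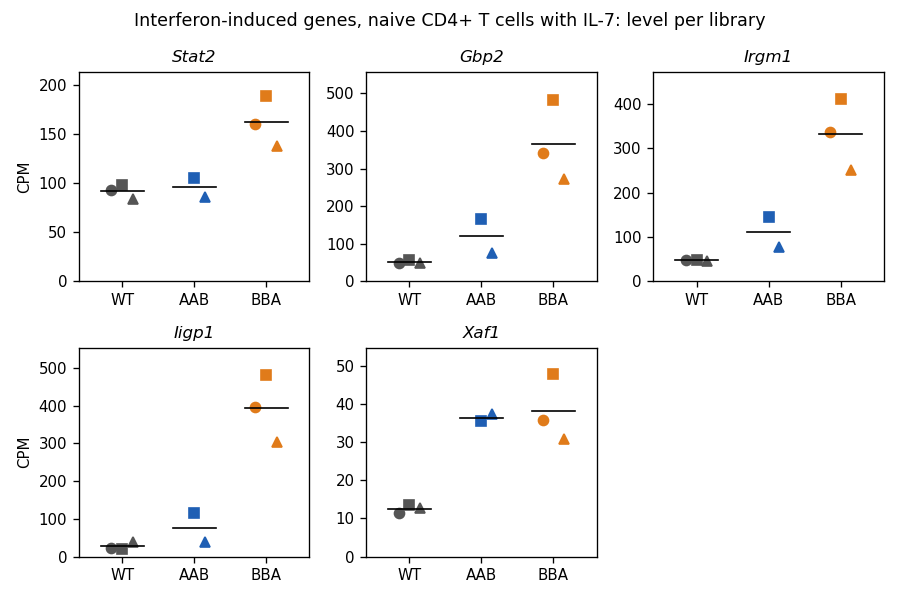
Level in CPM (y axis, from 0) of Stat2 and 4 interferon-induced genes in each library with IL-7, by genotype; circles, squares and triangles are replicates 1, 2 and 3, and bars are group means. BBA lies highest for Stat2, Gbp2, Irgm1 and Iigp1, the 2 AAB libraries lie apart from each other for Gbp2, Irgm1 and Iigp1, and Xaf1 is as high in AAB as in BBA.

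IL-7 culture lowered genes of this list in all genotypes. Of the 30 genes 25 were lower with IL-7 than without cytokine in WT, 22 in AAB and 10 in BBA, against 7.32%, 5.96% and 5.71% of all genes tested. Gbp3, a further guanylate-binding protein gene named after its values were seen, was higher with IL-7 in AAB (log2 response 0.62) and in BBA (0.93), and no gene of the list was higher in WT. The median log2 responses were −1.44, −1.70 and −0.43. Irgm1 went from 217 and 187 CPM to 145 and 77.9 in AAB, from 125 to 150 to 46.5 to 48.1 in WT, and from 238 and 250.1 to 251 to 410.2 in BBA. No gene of the list passed the test of the difference between responses in AAB and BBA, all 30 of which were below 0.

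Promoters of the genes lower in AAB than in BBA were searched for a paired element of the type that interferon-activated factors bind, 2 runs of TTTC with any 2 bases between them, on both strands, with overlapping matches merged. It was present in 15 of 50 such genes with a window, in 3 of 60 that were higher (5.0%), in 11 of 19 tested interferon-list genes (57.9%) and in 3.9% of the 7639 tested genes. The windows of 4 DEG show it (RefSeq, GRCm38.p6, match in capitals, 5′ to 3′ on the strand of the gene). They are chr11:48871428-48871457 on the minus strand for Irgm1, chr3:142620594-142620623 on the plus strand for Gbp2, chr10:128270266-128270295 on the plus strand for Stat2, and chr7:102565447-102565476 on the minus strand for Trim21, an interferon-inducible ubiquitin ligase gene.
Irgm1: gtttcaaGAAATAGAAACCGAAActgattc
Gbp2: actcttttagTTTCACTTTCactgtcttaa
Stat2: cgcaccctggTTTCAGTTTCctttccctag
Trim21: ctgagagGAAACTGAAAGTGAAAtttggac
In Gbp2 and Stat2 the element is read on the gene's strand, and in Irgm1 and Trim21 as its reverse complement, which has GAAA in both places. The matches describe these letters only.

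Eomes, a T-box factor of NK and memory T cells, stood at 2.92 and 3.80 CPM in AAB, 0.448 to 1.32 in WT and 14.5 to 27.9 in BBA, 6.67-fold below BBA (adjusted p = 0.00625). It was the only DEG of 11 tested helper and effector fate genes against BBA, and it is itself an NK cell marker. Cmpk2, Clstn3, Baiap3 and Perm1 were the other leading genes that were lower, each under 20 CPM with IL-7.

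In the lists of lipid synthesis and ribosome biogenesis most genes lay above 0 against BBA and few were DEG. Of all genes tested, 51.0% lay above 0 and 0.882% were DEG that were higher, with a median log2 fold change of 0.00356. Of 27 tested genes of cholesterol and fatty acid synthesis 25 were above 0 in AAB against BBA, with a median log2 fold change of 0.35, but only Acat2, which acts at the entry to the mevalonate pathway, was a DEG. It stood at 28.9 and 37.7 CPM in AAB, 43.2 to 55.6 in WT and 16.1 to 18.5 in BBA, 1.91-fold above BBA (adjusted p = 0.0158). With IL-7 culture 13 of 28 genes of that list rose in WT, 13 in AAB and 6 in BBA. Of all genes tested 9.03%, 7.12% and 7.89% did. Of 30 ribosome biogenesis genes 28 were above 0 in AAB against BBA (median 0.24), and 1, Rrp12, was a DEG, called in 1 of 8 fits that left out a library. IL-7 culture lowered 2 of these 30 in WT, 2 in AAB and 14 in BBA. Of all genes tested it lowered 7.32%, 5.96% and 5.71%, so that the counts in WT and AAB were near those shares. No gene of either list differed in response between AAB and BBA by its own test.

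Of 19 tested genes of amino acid transport and mTORC1 signalling, Fnip1, whose product partners folliculin, was higher in AAB than in BBA, at 154 and 154 CPM against 75.7 to 80.2, with WT at 189 to 210. Rragd, a Rag GTPase, was lower in AAB than in WT, at 13.01 and 19.1 CPM against 32.2 to 36.3, 2.12-fold. Of 14 tested activation and checkpoint receptors, Cd6, a regulator of T cell receptor signalling, was 1.52-fold higher than in WT (adjusted p = 0.0496, called in 2 of 8 fits that left out a library). Cdk6 was the DEG in 21 tested cell cycle genes. The 23 glycolysis and pentose phosphate genes, 20 naive and quiescence genes, 13 homing and chemokine receptors and 16 T cell receptor complex genes held no DEG between AAB and either genotype. Their median log2 fold changes lay between −0.09 and 0.13 against WT and between −0.17 and 0.02 against BBA.

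**Figure D5:**
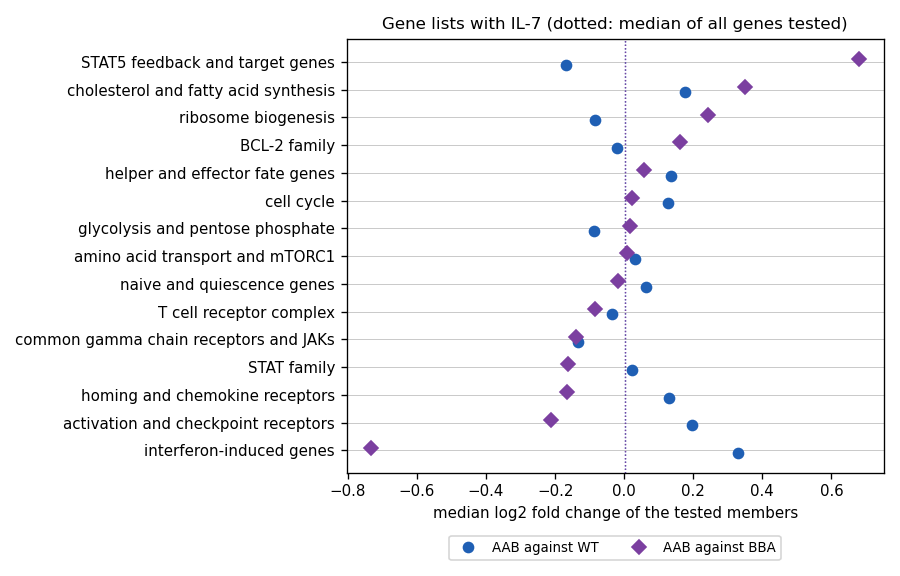
Median log2 fold change (x axis) of the tested members of 15 gene lists (y axis) for AAB against WT (circles) and AAB against BBA (diamonds) with IL-7; dotted lines mark the median over all 9412 genes. Against BBA the STAT5 list lies farthest to the right, at 0.68, and the interferon list farthest to the left, at −0.73, and against WT the medians lie between −0.17 and 0.33. The lists were chosen with earlier results of these data known.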

How the data were processed

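The deposited read counts per gene (polyA RNA) were made by the authors with TopHat2, Cufflinks and HTSeq, per the labels. The labels name mm9 and the study's methods mm10, and the files carry symbols only. The annotation and strand setting are not given in the sources used here. Counts were analysed in edgeR 4.0.16 (TMM, older quasi-likelihood fit, R 4.3.3) after a re-implemented HTSFilter step (at least 105 normalized counts in some library for the 8 IL-7 libraries, 47.1 for all 15). Comparisons between genotypes came from the first fit, responses to IL-7 culture and levels from the second. DESeq2 1.42.0 was an alternative. The scripts were tested on simulated data. In all 12 pairs of replicates the counts differed beyond sampling error (chi-square divided by its degrees of freedom, 5.5 to 21.1), and p-values rest on 2 to 3 libraries per group. Named genes were Stat5a, Stat5b, up to 12 DEG per direction by fold change (mean of at least 50 normalized counts, no overlap), the STAT5 list, and up to 4 DEG of every other list or else its 2 most abundant genes. Members and lists were chosen with earlier results of these data known. RefSeq positions (GRCm38.p6) were matched by symbol for 9383 of 9412 tested genes and promoter windows for 7639. For 2 libraries whose title and treatment label disagree no group was assigned. Some genes are not reported here.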

Additional observations from a re-analysis of the deposited data

Results flagged for a closer look

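In 14 genes the response to IL-7 culture differed between genotypes by a test of the difference itself (interaction term in edgeR, Benjamini-Hochberg adjusted over 10535 genes). Values are differences of log2 responses. The response in AAB minus that in WT was −0.994 for Ahcyl2 and −1.081 for Vim, and both AAB libraries with IL-7 lay below the 3 WT libraries in both genes. The response in AAB minus that in BBA was 3.147 for Ecm1, 2.403 for Slc30a4 and 1.567 for Atp10a. It was 1.173 for Gpr146, 1.151 for Pkp4, 1.108 for Phc3, 0.959 for Fnip1, 0.947 for Mov10 and 0.755 for Suco. D630039A03Rik, at 1.32 CPM or less in every library without cytokine, had the largest difference of these genes, 4.564. The difference was −2.174 for Abcg3 and −0.708 for Trim21. Of the 15 fits that left out 1 library each, 2 called Trim21, 7 Suco, 9 Mov10, 10 Pkp4 and 12 Abcg3. In the 10 genes with a positive difference against BBA both AAB libraries with IL-7 lay above the 3 BBA libraries, and in Abcg3 and Trim21 below them. The call itself favours such separation, against WT as against BBA.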

How the results depend on the processing

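None of the fold changes followed gene by gene under the alternatives changed sign. Across those genes and settings the call was the same 1407 times, lost 262 times and gained 17 times. Not every value in the text was followed in this way, such as the IL-7 responses of Adam19, Pttg1 and Gbp3 within a genotype. Counts of DEG are given in the order AAB against WT, AAB against BBA. Without a filter they were 132 and 241, with DESeq2 160 and 259 (62 and 119 higher, 98 and 140 lower), with Bonferroni adjustment 12 and 29, and above 2-fold 37 and 72. A fit of the 2 genotypes alone gave 78 against BBA, and leaving out BBA replicates 1 and 3 together, chosen after seeing the data, gave 80. Leaving out chromosome 11 was also chosen after seeing the data. Leaving out single libraries gave 23 to 88 and 75 to 218; a lone AAB library was then assumed to vary like the other groups. BBA against WT gave 93 with Bonferroni adjustment and 251 above 2-fold. Responses to IL-7 culture in WT, AAB and BBA gave 510, 245 and 278 genes with Bonferroni adjustment and 790, 621 and 599 above 2-fold. Differences of responses, AAB minus WT and AAB minus BBA, gave 11 and 36 genes without a filter, 18 and 52 with DESeq2, and 0 to 4 and 6 to 22 when single libraries were left out. The first was 1 above 2-fold, and the second 5 with Bonferroni adjustment. For the counts that moved, the cause was not tested, other than that stricter limits and fewer libraries call fewer genes by construction.

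Deviations of same-numbered IL-7 libraries from their group means correlated at 0.0938 to 0.448 in 7 pairs, at 0.271 to 0.448 in the 4 with AAB, and without cytokine at 0.151 to 0.283 in 6 pairs. As 1 pair (WT and BBA replicate 3) was under 0.1, and AAB shares only 2 numbers with each genotype, the numbers were not taken to pair the libraries. Between WT and BBA every library correlated best with its own number, a hint from the data. With a replicate block the counts were 119 and 233, and 4 and 21 for the differences of responses, and Ecm1 against WT (log2 −1.34) and Il2ra against BBA (1.72) were called. Only 2 AAB libraries limit every AAB value, and genes under 105 normalized counts in every IL-7 library were not tested.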

Other observations

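For 2 further libraries of naive CD4+ T cells the title names no cytokine and the treatment label IL-7, so they entered no comparison. Values are CPM of the library total. The library labelled AAB held 13485027 counted reads, with Stat5a at 1.85, Stat5b at 145.0, Cish at 26.3, Pim1 at 112, Bcl2 at 244 and Ecm1 at 101. The library labelled BBA held 10713517, with Stat5a at 46.0, Stat5b at 104, Cish at 11.6, Pim1 at 98.3, Bcl2 at 148 and Ecm1 at 61.5.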
